A study of Homo sapiens with 64 samples.

Results

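The region described here is a window of the pericentromere of chromosome 10, from 42350000 to 42610000 in the hg19 human assembly, and its members are all peaks that the deposited lists place in it. It held 398 of the 2442 peaks in the 24 lists (16.3%), and 398 of the 2178 peaks outside the mitochondrial genome (18.3%), here called nuclear peaks. The window was selected on the same peak lists, because peaks were dense there, so the number, width, rank and covered length of its peaks are given as a description. The peaks fell into 2 sub-blocks. The first, set as 42350000 to 42420000, held 242 peaks between 42360689 and 42409437, and the second, set as 42520000 to 42610000, held 156 peaks between 42527876 and 42600571. No list had a peak in the 118438 bp between them. The first peak began 10689 bp inside the window and the last ended 9429 bp inside it. The nearest peaks before it ended at 38881999, 3.48 Mb from its first member, in the lists of FoxM1 in U2OS and PCNA in shTUBG U2OS at 9 h, and the nearest after it, of FoxM1 at 3 h, lay at 52514554 to 52514771, 9.91 Mb from its last member. Chromosome 10 had 10 peaks in all outside the window.

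Pericentromeres lie beside the centromere and are built largely from tandem repeats known as satellites, which in many cells are packed as constitutive heterochromatin and replicate late in S phase. Near-identical copies of a repeat share short reads, so an aligner often cannot assign a read to a single copy. γ-Tubulin is best known as the protein that nucleates microtubules and is also found in the nucleus. PCNA is the sliding clamp that holds DNA polymerases on the template, Mcm5 is a subunit of the helicase loaded at replication origins, and FoxM1 is a transcription factor that drives genes of G2 and mitosis. No sequence of the window was analysed here, so the name satellite could not be checked, and the peaks are described by position alone. Whether the assembly holds sequence to which reads can be aligned in the stretches without a peak, inside or around the window, was likewise not checked. How reads from repeated sequence were aligned or filtered was not given in the sources used here.

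The lists come from chromatin immunoprecipitation and sequencing (ChIP-seq) of micrococcal nuclease-treated chromatin of U2OS, an established human osteosarcoma line, and of shTUBG U2OS, the same line with stable expression of a short hairpin RNA against TUBG, which encodes γ-tubulin. In both lines cells were harvested without synchronisation, here called asynchronous, or 3, 7 or 9 h after release from a double thymidine block, a treatment that holds them at the start of S phase. All 4 proteins, γ-tubulin, PCNA, Mcm5 and FoxM1, were precipitated from U2OS chromatin, and γ-tubulin and PCNA from shTUBG U2OS chromatin. The γ-tubulin reagent was a mixture of rabbit polyclonal antibodies and the PCNA reagent was a mouse monoclonal antibody. The labels name 2 samples for each antibody, time and line, but both share 1 list, so a list has no replicate error and its read depth is unknown. Peak positions cannot check the identity of the line or the level of γ-tubulin left in it.

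Lists differed in size, from 17 to 244 peaks. The U2OS PCNA list at 7 h stands apart, because all its 17 peaks lay on the mitochondrial genome. It is the reason for a value of 0 for PCNA in U2OS at 7 h wherever such a value appears. The U2OS Mcm5 list at 7 h was also short, with 29 peaks, of which 24 were nuclear.

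Of the 24 lists, 19 had at least 1 peak in the window, with 9 to 28 peaks each and a median of 21. In the map of peaks by list, most peaks of every antibody lay in a few shared stretches of both sub-blocks. The 5 lists with none were those of PCNA and Mcm5 in U2OS at 7 h and of γ-tubulin in shTUBG U2OS in asynchronous cells and at 3 and 7 h. These 5 lists held 0 to 86 nuclear peaks elsewhere. The shTUBG U2OS γ-tubulin list of asynchronous cells, with 86, had more nuclear peaks outside the window than 10 of the 19 lists with peaks inside it.

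**Figure D1:**
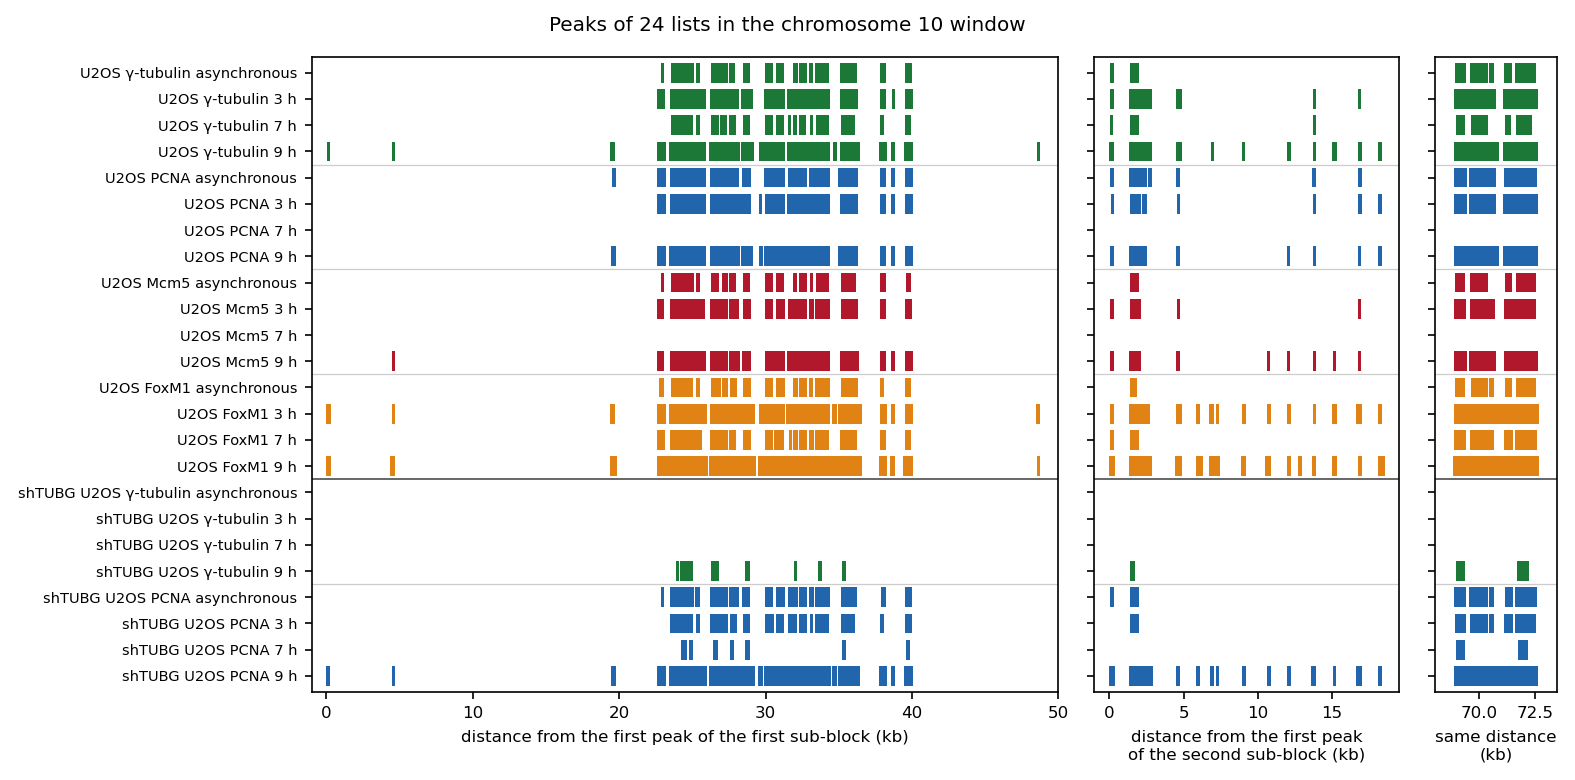
Each row is 1 of the 24 lists and each bar a peak drawn to scale, coloured by antibody. The x axes give distance in kb from the first peak of the first sub-block (left) or of the second (middle and right, on either side of a stretch of 50295 bp with no peak). The 5 empty rows are the lists with no peak in the window.

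Peaks of all lists that shared at least 1 bp were merged into regions, numbered here from 1 to 24 in genome order. The first sub-block had 10 regions and the second 14, of 387 in the whole series. Peaks covered 16877 bp of the first sub-block and 10240 bp of the second in at least 1 list. Peak width had a median of 482 bp and a range of 200 to 7122 bp, against a median of 326 bp for the other nuclear peaks. The median was 536 bp in the first sub-block and 354 bp in the second. The 7122 bp peak, of FoxM1 at 9 h, was also the widest nuclear peak of the series.

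The broadest signal lay in 3 neighbouring regions of the first sub-block, each called in all 19 lists that had a member. Region 4 spanned 42383238 to 42386741 (3504 bp), region 5 spanned 42386806 to 42390038 (3233 bp), and region 6 spanned 42390137 to 42397258 (7122 bp). They held 41, 48 and 91 peaks. Another region called in 19 lists, region 24 at 42596705 to 42600571 (3867 bp, 57 peaks), stood alone at the far end of the second sub-block, after 50295 bp with no peak. Whether reads could be placed in that empty stretch was not checked, so its lack of peaks is not read as a lack of binding. These 4 regions together held 237 of the 398 peaks (59.5%).

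The number of peaks in the wide regions followed how finely each list divided them. In region 6 the FoxM1 list at 9 h had 1 peak of 7122 bp, the FoxM1 list at 7 h had 8 peaks covering 4733 bp, and the γ-tubulin list of U2OS at 7 h had 8 peaks covering 4024 bp. More peaks thus did not mean more covered sequence. For this reason the bases covered by peaks, called covered length, are used below beside the count of peaks.

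Within the wide regions the lists met at narrow places. Of the bases covered in the first sub-block, 1525 were covered in all 19 lists, in 5 stretches, at 42384917 to 42385348, 42385483 to 42385701, 42387126 to 42387456, 42389315 to 42389591 and 42395941 to 42396206. In the second sub-block 872 bases were covered in all 19 lists, in 2 stretches near the ends of region 24, at 42596815 to 42597215 and 42599615 to 42600085. Between them, in the middle of region 24, a stretch of 772 bp from 42598245 to 42599016 fell to 3 lists at its lowest. A lower requirement, 17 of the 19 lists, was met by 15 stretches in the first sub-block and 5 in the second.

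Region 24 held the best-ranked member in 17 of the 19 lists, where rank is the place of a peak in its own list when sorted by the deposited score from the highest. Its top score in U2OS was 308 for γ-tubulin in asynchronous cells (rank 3), 708 at 3 h (rank 2), 253 at 7 h (rank 5) and 764 at 9 h (rank 2). For PCNA in U2OS it was 617 without synchronisation, then 702 at 3 h and 794 at 9 h, each at rank 2. The scale of the score was not stated, so scores are read only through their ranks.

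For Mcm5 the top score of region 24 was 241 in asynchronous cells (rank 4), 411 at 3 h (rank 2) and 472 at 9 h (rank 2). For FoxM1 it was 132 in asynchronous cells (rank 6), 754 at 3 h (rank 1), 232 at 7 h (rank 3) and 897 at 9 h (rank 1). In shTUBG U2OS it was 118 for γ-tubulin at 9 h (rank 8). PCNA in that line had 343 in asynchronous cells (rank 2), 346 at 3 h (rank 1), 124 at 7 h (rank 3) and 736 at 9 h (rank 2). Region 24 thus stood within the first 8 peaks of every list that had a member, for each antibody and in both lines.

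Region 5 held the best-ranked member in the other 2 lists, both of FoxM1 in U2OS, with score 149 and rank 2 in asynchronous cells and score 241 and rank 1 at 7 h. A peak of the window ranked first in 4 lists and within the first 10 in all 19. Of the first 10 peaks of a list, between 2 and 8 lay in the window, with a median of 6. The median score of the members was above that of the other nuclear peaks of the same list in 18 of 19 lists. The exception was PCNA at 7 h in shTUBG U2OS, at 76 against 78. Wider peaks had higher scores within a list, with a Spearman correlation across the members of 0.382 to 0.928 and a median of 0.743 over the 19 lists. Peaks of 1 list share their library and depth, so this is a description of each list.

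The ranks separated the regions into groups. Expressed as a percentile of the list, where 100 is the highest score, the 180 peaks of regions 4 to 6 had a median of 86.5 and the 57 peaks of region 24 a median of 96.0. The 62 peaks in the other 7 regions of the first sub-block had a median of 74.2, and the 34 peaks of regions 11 and 12, which open the second sub-block, a median of 76.3. The 65 peaks of regions 13 to 23, between them and region 24, had a median of 37.0. Among these last, 16 (24.6%) lay in the upper part of their list, at a percentile of 50 or above, against 55 of 57 (96.5%) in region 24.

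**Figure D2:**
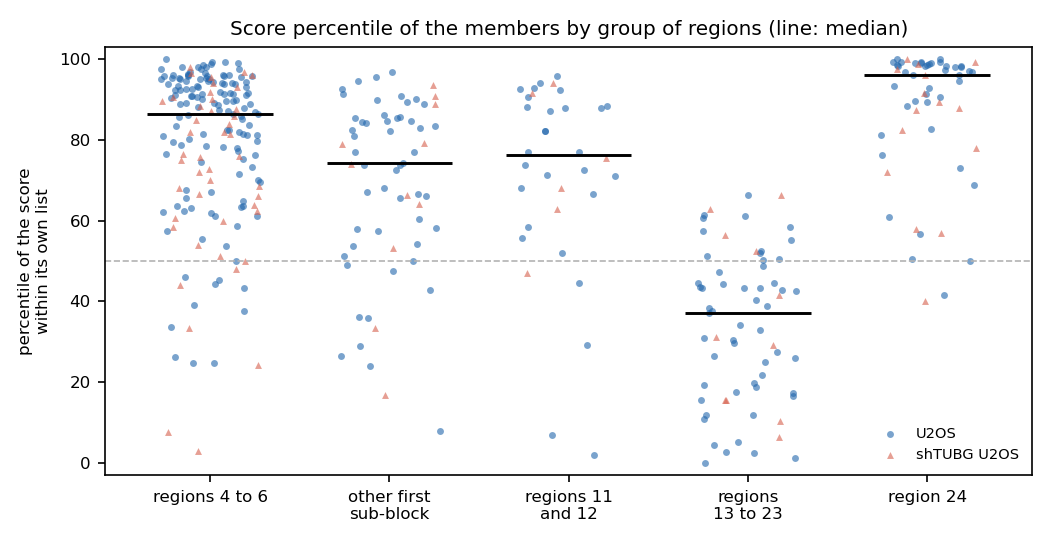
Each point is a peak of the window, placed by group of regions (x axis) and by the percentile of its score within its own list (y axis, 100 is the highest), with circles for U2OS and triangles for shTUBG U2OS. Black lines are medians, which run from 37.0 in regions 13 to 23 to 96.0 in region 24, and the dashed line is the middle of a list.

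Regions called in most lists beside the 4 widest were smaller. Region 9, at 42400085 to 42400767, was called in 18 lists, with 1 peak of 220 to 680 bp in each. Region 7, at 42398449 to 42398992, was called in 17 lists. In the second sub-block, region 12 at 42529222 to 42530800 was called in 18 lists and region 11 at 42527876 to 42528232 in 14. Regions 13 (42532297 to 42532769), 20 (42541450 to 42541815) and 22 (42544500 to 42544871) were each called in 10. A region was called in a median of 13 lists in the first sub-block and of 6 in the second.

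The regions differed in how often they were called over the 4 times. In U2OS, regions 4 to 7, 9, 12 and 24 had γ-tubulin and FoxM1 peaks at each of the 4 times and were called for PCNA and Mcm5 at 3, the missing time being 7 h. FoxM1 was called in all 24 regions at 1 time or more, and 1 region was called in 1 list alone. This was region 19, at 42540595 to 42540829, with a FoxM1 peak at 9 h of score 38 that ranked 238 of 244. In shTUBG U2OS, PCNA was called in regions 4, 5, 6, 9 and 24 at all 4 times, and γ-tubulin in regions 4, 5, 6, 12 and 24 at 9 h alone.

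**Figure D3:**
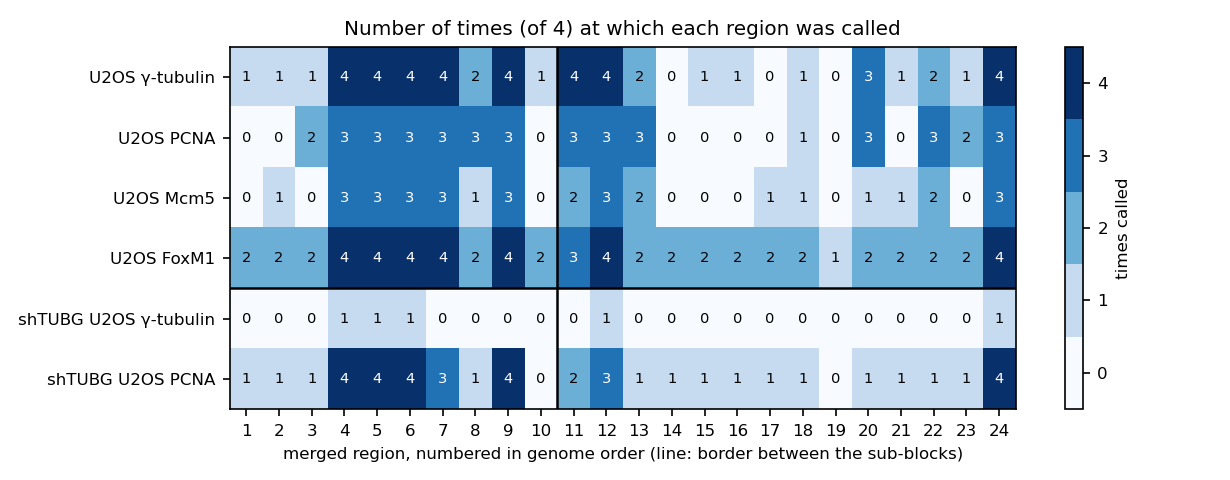
Rows are antibodies by line and columns are the 24 merged regions in genome order, with a vertical line between the sub-blocks. Numbers and shading give at how many of the 4 times a region was called, and regions 4, 5, 6 and 24 have 3 or 4 in every row but that of γ-tubulin in shTUBG U2OS, where they have 1.

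Regions 13 to 23 formed a row of short, low-ranked peaks between 42532297 and 42546409. Their 65 peaks came from 11 lists, had a median width of 257 bp and scores of 17 to 164, and none ranked above 49 in its list. Of the 65 peaks, 41 were in lists of 9 h, 20 in lists of 3 h, 1 in a list of 7 h and 3 in a list of asynchronous cells, that of PCNA in U2OS. Most of the row was called for FoxM1 at 9 h (11 regions), for FoxM1 at 3 h (10 regions) and for PCNA in shTUBG U2OS at 9 h (10 regions). For γ-tubulin it was called in 8 regions at 9 h, 3 at 3 h and 1 at 7 h in U2OS, and in none in shTUBG U2OS.

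The centres of these 11 regions were 739.5 to 1981 bp apart, with a median of 1408 bp. The starts showed a repeating step in one stretch, which was picked out after the values were seen. Over the 7 regions from 16 to 23 without region 19, the distance from the median start of a region to the next was 1710, 1346, 1718, 1336, 1715 and 1350 bp. In these medians longer steps of 1710 to 1718 bp alternated with shorter ones of 1336 to 1350 bp, and any neighbouring pair of steps added to 3051 to 3065 bp. Single lists were more variable. In the 3 lists with a peak in all 7 regions the longer steps were 1603 to 1729 bp, the shorter ones 1325 to 1455 bp, and neighbouring pairs added to 2944 to 3156 bp. The steps before region 16 did not follow this order, at 1325, 927 and 2152 bp.

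Edges were placed alike by different antibodies in some regions and less so in others. The start of region 7 varied over 90 bp among 17 lists, and in region 24 the first start varied over 110 bp among 19 lists, while the end of region 12 varied over 1167 bp among 18. Covered sequence was nested. The FoxM1 list at 9 h covered 26773 bp, and between 98.8% and 100% of the covered bases of each of the other 18 lists lay within it. In all, 344 of the 27117 bases covered in any list lay outside it.

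Covered length was larger at 9 h than at the other times for each antibody in each line. For γ-tubulin in U2OS it was 12977 bp without synchronisation, then 18626 bp at 3 h, 11846 bp at 7 h and 22616 bp at 9 h. For PCNA it was 18425, 18371, 0 and 20124 bp in the same order. For Mcm5 it was 12038, 15834, 0 and 18345 bp. The 7 h lists were the lowest for these 3 antibodies.

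For FoxM1 the order differed at the lower end, with 12422 bp without synchronisation, then 24156 bp at 3 h, 14354 bp at 7 h and 26773 bp at 9 h. PCNA in shTUBG U2OS had 14037, 12657, 2894 and 24185 bp, and γ-tubulin in that line had 0, 0, 0 and 3965 bp. With 1 list per time no order over time was tested. The 9 h list also had the most nuclear peaks for PCNA in both lines, for γ-tubulin in U2OS and for FoxM1, but not for Mcm5, with 107 against 128 at 3 h, nor for γ-tubulin in shTUBG U2OS, with 49 against 86 without synchronisation. The part of list size in these values was not tested.

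As a share of all nuclear covered length, the window did not follow the same order. For γ-tubulin in U2OS it held 29.1% without synchronisation, then 31.0% at 3 h, 38.5% at 7 h and 28.0% at 9 h, so the list with the largest covered length had the smallest share. The same was true at 9 h of FoxM1 (19%) and, among lists with a member, of PCNA in U2OS (31.5%) and in shTUBG U2OS (28.4%), while for Mcm5 the share at 9 h (33.1%) was the largest of the 3 lists with a member. Over the 19 lists the share ran from 19% to 55.7%, with a median of 31.0%.

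**Figure D4:**
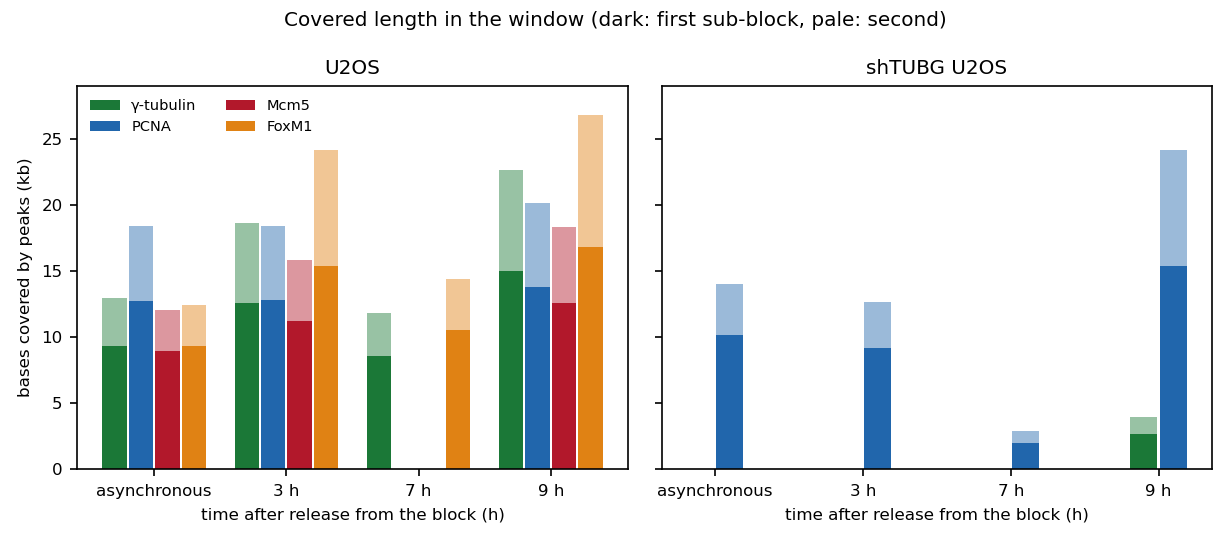
Bars give the bases covered by peaks in the window (y axis, kb) by time (x axis), antibody (colour) and line (panel), with the first sub-block in dark and the second in pale colour, 1 list per bar and no error. The tallest bar of each colour is at 9 h, and γ-tubulin in shTUBG U2OS has a bar at 9 h alone.

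The first sub-block had the greater covered length throughout. Covered length was larger in the first sub-block in 19 of 19 lists, 1.69 to 2.97 times that of the second, with a median ratio of 2.28. The number of peaks was larger in the second sub-block in 2 lists, those of FoxM1 at 9 h (14 against 10) and PCNA in shTUBG U2OS at 9 h (14 against 13), and equal for FoxM1 at 3 h. These 3 lists were also those with the most regions of the row from 13 to 23.

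The comparison of lines asks whether peaks in the window depend on the level of γ-tubulin. In the γ-tubulin lists, U2OS had 22, 17, 23 and 27 peaks in asynchronous cells and at 3, 7 and 9 h, and shTUBG U2OS had 0, 0, 0 and 10. The counts did not overlap between lines, whereas those of all nuclear γ-tubulin peaks did, at 25 to 86 in shTUBG U2OS against 70 to 150. In the window the sum was 10 against 89, a difference of -88.8%, beside 186 against 437 (-57.4%) for all nuclear γ-tubulin peaks. The covered length in the window was 3965 against 66065 bp (-94.0%), with a mean difference over times of -15525 ± 3625 bp (SD, n = 4 times). Nuclear γ-tubulin peaks outside the window also differed, with 176 against 348 in sum (-49.4%), lower at 3 of 4 times. The window's share of nuclear γ-tubulin peaks was lower in shTUBG U2OS at 3 times and higher at 9 h (20.4% against 18.0%), with a mean difference of -16.8 ± 14.9 percentage points.

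These differences and those that follow are descriptions. The window was selected on the same lists, and the times, with 1 list each, are not replicates of a condition. Exact two-sided permutation tests that flip the sign of the difference at each time gave p from 0.125 to 0.75 over the 9 planned comparisons of lines and antibodies, and 0.375 to 0.75 after Benjamini-Hochberg adjustment. The smallest p that 4 times allow is 0.125, so the tests could not reach 0.05 and nothing is read from them.

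The regions without a γ-tubulin call in shTUBG U2OS were read against all merged regions. In asynchronous cells 8 of 8 regions of the window called in U2OS were not called in shTUBG U2OS, beside a background of 70.5% over all regions. At 3 h it was 12 of 12 beside 88.8%, at 7 h 9 of 9 beside 93.2%, and at 9 h 16 of 21 beside 87.1%. The counts at 3 and 7 h were near the background, and the count at 9 h lay below it. Regions 7, 9 and 11 had a γ-tubulin peak in each of the 4 U2OS lists and in none of the shTUBG U2OS lists, which is 3 of 24 regions (12.5%) beside a background of 5.94%. Both shares are over all merged regions, so they also depend on how often regions were called in U2OS, and the window was selected for dense peaks. Regions 4, 5, 6, 12 and 24 too had γ-tubulin in each of the 4 U2OS lists, and they were called in shTUBG U2OS at 9 h.

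These 3 regions were single peaks below the best-ranked of the window. The γ-tubulin score of region 9 in U2OS was 176, 322, 179 and 378 in asynchronous cells and at 3, 7 and 9 h, at ranks 19 of 102, 14 of 123, 15 of 75 and 15 of 153. Region 7 scored 121, 252, 94 and 340 at ranks 41, 20, 38 and 16. Region 11 scored 111, 138, 84 and 212 at ranks 43, 36, 42 and 36. PCNA was called in shTUBG U2OS in region 9 at all 4 times, in region 7 at 3 times and in region 11 at 2, so these places were not empty in that line.

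PCNA was called in the window at all 4 times in shTUBG U2OS. U2OS had 21, 21, 0 and 20 PCNA peaks in asynchronous cells and at 3, 7 and 9 h, and shTUBG U2OS had 22, 20, 9 and 27. The values of the lines overlapped. Summed over times the peaks were 78 against 62 (a difference of 25.8%, and of 11.3% without 7 h) and the covered length was 53773 against 56920 bp (-5.53%), with a mean difference of -787 ± 4976 bp (SD, n = 4 times).

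By time, PCNA covered length differed in shTUBG U2OS by -4388 bp in asynchronous cells (-23.8%), -5714 bp at 3 h (-31.1%) and 4061 bp at 9 h (20.2%), and was 2894 bp against 0 at 7 h. The summed difference rested on single times. It was 3.22% without asynchronous cells, 6.66% without 3 h, -10.6% without 7 h and -19.6% without 9 h, and it was 1.74% when peaks within 1000 bp were merged. The share of nuclear PCNA peaks in the window differed by 9.84 ± 11.3 points over the 3 times with a value in both lines, and by 4.11 points without 3 h.

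By regions, 5 of 13 that had PCNA in asynchronous U2OS cells were not called in shTUBG U2OS beside a background of 47.8%, 6 of 13 at 3 h beside 54.7%, and 0 of 15 at 9 h beside 3.66%. In the other direction, 0 of 8 regions with PCNA in asynchronous shTUBG U2OS cells were without a call in U2OS beside 21.7%, 0 of 7 at 3 h beside 3.33%, 5 of 5 at 7 h beside 92.3% and 7 of 22 at 9 h beside 35.8%. Apart from 7 h, the counts of the window lay below those backgrounds. At 7 h the U2OS PCNA list had no nuclear peak, so 5 of 5 was fixed in advance and nothing is read from it.

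The changes of both antibodies between lines were set side by side after the values were seen. The change of covered length between lines was more negative for γ-tubulin than for PCNA at 4 of 4 times, with a mean difference of -14738 ± 5908 bp (SD, n = 4 times). The differences were -8589, -12912, -14740 and -22712 bp in asynchronous cells and at 3, 7 and 9 h. At 7 h the U2OS PCNA list had no nuclear peak, so the PCNA change at that time could not be negative.

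Among antibodies in U2OS, summed covered length was 66065 bp for γ-tubulin, 56920 bp for PCNA, 46217 bp for Mcm5 and 77705 bp for FoxM1. Mcm5 was below γ-tubulin at 4 of 4 times (-30.0% in sum, and -14.8% without 7 h, when Mcm5 had no peak in the window). FoxM1 was above it at 3 of 4 times (17.6% in sum). PCNA differed from it by -13.8% in sum, and by 4.98% without the 7 h time, when PCNA had no nuclear peak.

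Peaks of different antibodies at the same time were then compared by position, with overlap of at least 25% of both peaks, the study's criterion. In U2OS 53 of 89 γ-tubulin peaks of the window overlapped PCNA (59.6%, 95% Clopper-Pearson interval 48.6 to 69.8%), against 180 of 348 other nuclear γ-tubulin peaks (51.7%). At 7 h it was 0 of 23, at 3 h it was 17 of 17, at 9 h it was 20 of 27, and without synchronisation 16 of 22. Without 7 h, when no PCNA peak was nuclear, the share was 80.3% in the window and 59.8% (180 of 301) among the other nuclear peaks. Adjacent peaks are not independent, and the interval covers counting error alone. These shares and those below also depend on peak widths, because the criterion asks for a share of both peaks. Without synchronisation 12976 of the 12977 bp covered by γ-tubulin lay within PCNA peaks, although 16 of 22 peaks met the criterion. It was 94.9% of the covered bases at 3 h and 87.9% at 9 h. Over all times the share of peaks was 66.3% with an overlap of 1 bp and 53.9% with 50% of both peaks. The part of widths was not tested.

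Counted from the PCNA peaks, 52 of 62 in the window overlapped γ-tubulin (83.9%), against 78.0% of other nuclear PCNA peaks. The γ-tubulin share to set beside it is the 80.3% without 7 h. Of 64 Mcm5 peaks 62 overlapped γ-tubulin (96.9%, elsewhere 73.7%) and 54 overlapped PCNA (84.4%, elsewhere 54.4%). For FoxM1, 78 of 95 peaks overlapped γ-tubulin (82.1%, elsewhere 41.2%) and 46 overlapped PCNA (48.4%, elsewhere 28.9%). The shares overlapping PCNA are lowered by peaks of 7 h, when no PCNA peak was nuclear. These were 0 of 21 FoxM1 peaks in the window and 0 of 86 elsewhere, and 0 of 24 Mcm5 peaks elsewhere. In shTUBG U2OS 1 of the 10 γ-tubulin peaks overlapped PCNA by this criterion, against 14 of 176 elsewhere (7.95%). The low count in the window does not mean separate positions. All 3965 bp covered by the 10 peaks, which were of 9 h, lay within PCNA peaks of that line and time. The criterion asks for a share of both peaks, and their widths differed. In region 24 the γ-tubulin peaks had 405 and 526 bp and the PCNA peak 3817 bp.

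The study called Mcm5 peaks that overlap PCNA active origins and the others dormant origins. By that definition the window held 54 active and 10 dormant origin peaks, recurring over 3 times. Dormant here means failing the 25% criterion, which need not mean a lack of PCNA. The list without synchronisation had 6 dormant peaks, yet all 12038 bp that Mcm5 covered there lay within PCNA peaks. For the 3 h list, with 1 dormant peak, 99.6% of the Mcm5 bases did so. For the 9 h list, with 3 dormant peaks, it was 96.1%. All 54 active origin peaks overlapped γ-tubulin, against 150 of 155 (96.8%) elsewhere among nuclear peaks, and 45 (83.3%) overlapped FoxM1, against 70.3% elsewhere. Of the 10 dormant origin peaks, 8 overlapped γ-tubulin, against 60 of 130 (46.2%) elsewhere, and 9 overlapped FoxM1, against 31 of 130 (23.8%). The 130 include all 24 nuclear Mcm5 peaks of 7 h, dormant by definition because no PCNA peak was nuclear then. Of these 24, 11 overlapped γ-tubulin. The window had no Mcm5 peak at 7 h, so the dormant groups cover different times. These differences between the window and elsewhere were not tested.

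Chromosome 2 held a cluster at 92268981 to 92326127 that appeared in the same lists. Its 210 peaks came from 19 lists, each of which also had peaks in the chromosome 10 window, and no list had peaks in either place alone. Covered length was larger on chromosome 10 in all 19 lists. The chromosome 2 cluster had 48 γ-tubulin peaks in U2OS and 1 in shTUBG U2OS.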

How the data were processed

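The authors sequenced micrococcal nuclease-treated chromatin. The submitters' processing notes name Bowtie2 2.1.0, SAMtools 1.7-13, MACS2 and hg19, with no settings. The deposited peak lists carry a whole-number score from 16 to 944 of unstated meaning, used here only within a list. Each list covers both samples of a group, and how these and the inputs were combined was not given in the sources used here. Depth is unknown, and inputs and reads were not used here. The PCNA list of U2OS at 7 h had no nuclear peak.

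Members are all peaks in the window, and coordinates count from 1. The members and lists were chosen with earlier results of these data known. Peaks sharing 1 bp were merged. Lines and antibodies were compared with two-sided exact sign-flip permutation tests over the 4 times, adjusted over 6 and 3 comparisons, with a threshold of 0.05 that 4 times cannot reach. Named regions were, in each sub-block, the 5 called in the most lists, the best-ranked, the widest, those with γ-tubulin at all 4 U2OS times and never in shTUBG U2OS, and those called in 1 list. Region 22, which ties with regions 13 and 20, the stretches shared by lists and the row of regions 13 to 23 were picked out after their values were seen. The positional functions and the permutation test were tested on simulated data. Python 3.11.15, numpy 2.4.6, pandas 2.3.3, scipy 1.17.1 and matplotlib 3.10.9 were used. Alternatives were keeping the upper part of each list by score, from its median, merging within 1000 bp, keeping peaks that another list of the same antibody also had, other overlaps, mitochondrial peaks and times left out.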

Additional observations from a re-analysis of the deposited data

Results flagged for a closer look

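The difference in PCNA covered length between shTUBG U2OS and U2OS had opposite signs at different times, and this contrast between times was not tested, since each time has 1 list per line. It was -4388 bp in asynchronous cells and -5714 bp at 3 h, and 2894 bp at 7 h and 4061 bp at 9 h. The value at 7 h is set against a U2OS list with no nuclear peak.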

How the results depend on the processing

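No paired analysis was possible because the 2 samples of a group share a single list, and nothing marks which of them a peak came from. Leaving out a replicate was likewise impossible, but times could be left out. Of 91 alternative values for 13 results, 5 changed sign, 4 were set apart as moved and the other 82 kept their direction. Size was not always kept among the 82. The difference in the share of nuclear PCNA peaks went from 9.84 to 22.6 points among peaks whose score reached the median of their list. The p-values under the alternatives could not fall under 0.125 and say nothing about stability.

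PCNA covered length between lines changed sign to 1.74% with peaks within 1000 bp merged, 3.22% without asynchronous cells and 6.66% without 3 h. The share of nuclear PCNA peaks changed sign to -0.414 points with peaks within 1000 bp merged. PCNA against γ-tubulin covered length in U2OS became 4.98% without 7 h, and the γ-tubulin peaks overlapping PCNA became 80.3% without it. The share of peaks in the window, 18.3% of nuclear peaks, was 16.3% with mitochondrial peaks and 28.6% among peaks whose score reached the median of their list. The 24 regions became 15 when those within 1000 bp were merged. The causes were not tested.

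The difference in γ-tubulin covered length between lines ran from -100% to -91.6%. The difference in the window's share of nuclear peaks ran from -30.2 to -8.24 points for γ-tubulin and from -0.414 to 22.6 points for PCNA. Among peaks whose score reached the median of their list, 13 of the 24 regions kept their number of lists within 1.5 times and 6 were no longer called. Keeping peaks that recurred for the same antibody, 17 kept it and 1 was no longer called. Unknown depth limits every count, since a shorter list can miss low-ranked peaks such as those of regions 13 to 23.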
